A study of Arabidopsis thaliana with 12 samples.

Results

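Gene expression was compared between whole Arabidopsis thaliana seedlings of a cfh1 mutant and of a PIF3 over-expression line. The comparison takes 6 of the 12 libraries of the series, 3 for each line, chosen by genotype label alone, and all genes with enough counts enter it. Col-0, the wild type, and a line with a CFH1 decoy stayed out of the test. Both lines have the ecotype label Columbia 0, and the mutant allele is named cfh1-1. What drives PIF3 in its line, and whether each line stands for 1 transformant or clone, could not be read from the labels. Seedlings of both lines had 7 days of 12 h light and 12 h dark before a shift to constant red light, and were harvested on day 12 at zeitgeber time 1 (hours after the former dawn). The library titles of the PIF3 line read pif3 mutant, against over-expression in 2 other label fields, which were followed.

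PIF3 is one of the phytochrome-interacting factors (PIFs), basic helix-loop-helix proteins that bind G-box and related DNA elements. Active phytochrome, formed in red light, binds these factors and leads to their breakdown. In dark-grown seedlings they promote stem elongation and hold back genes for chlorophyll and photosynthesis. F-box proteins such as CFH1 select targets for ubiquitin ligases. The series title relates CFH1 to the clock and to photomorphogenesis in red light. The comparison asks how a mutant of it differs from a plant rich in PIF3 transcript in the same light.

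Library totals ran from 27412570 to 32309836 counts, with 22542 to 22943 genes detected. Replicate 1 of the PIF3 over-expression line stood apart, with rank correlations over 20841 genes of 0.983 and 0.985 to the other libraries of its line, which correlated with each other at 0.994. Replicate 3 of cfh1 stood apart less, at 0.990 and 0.986 against 0.994 between replicates 1 and 2. Of the genes lower in cfh1, 77.3% had their highest over-expression value in replicate 1, and of the genes higher in cfh1, 76.2% had their lowest there. The part of this library in the results was not tested beyond leaving it out. Separate plates or cultures are not stated for the libraries of a line, so the spread behind each p-value may be technical.

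The lines differed at many genes, in nearly equal numbers each way. Of 20841 genes tested, 1304 were higher in cfh1 (6.26%) and 1279 lower (6.14%) by edgeR's quasi-likelihood test at a Benjamini-Hochberg adjusted p under 0.05. Among them, 302 higher and 575 lower genes differed by at least 1 on the log2 scale. Every log2 difference here is cfh1 minus PIF3 over-expression, and its median over all genes tested was -0.01. With library totals in place of the scaling factors, the median was -0.10 and the counts were 970 higher and 1844 lower. The counts lean on single libraries. They were 35 higher and 129 lower without cfh1 replicate 1, 79 and 191 without cfh1 replicate 2, 662 and 839 without PIF3 over-expression replicate 1, and 454 and 865 without its replicate 3. Without cfh1 replicate 3 they were 1660 and 1286, and without PIF3 over-expression replicate 2, 1124 and 1050. DESeq2 called 2229 higher and 1830 lower. A list count from any of these fits is to be read beside the total of its own fit. Of the called genes, 1300 of 1304 higher and all 1279 lower had no overlap between the lines. Lack of overlap thus adds little to a call. It also left little room for a change of direction, which no called gene showed in the 6 fits that left out 1 library. Of 82 called genes among the 87 with full values, 17 passed in all 6 of these fits: UBP6, AT1G51720, MRD1, PIF3, HFR1, ST2A, GOLS2, HAI1, RD22, HSFA6A, LTP4, PAP1, FLC, BHLH38, GH3.5, EXPA11 and LEA3. Of the 82, 65 did not pass without cfh1 replicate 1 and 60 did not without cfh1 replicate 2.

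**Figure D1:**
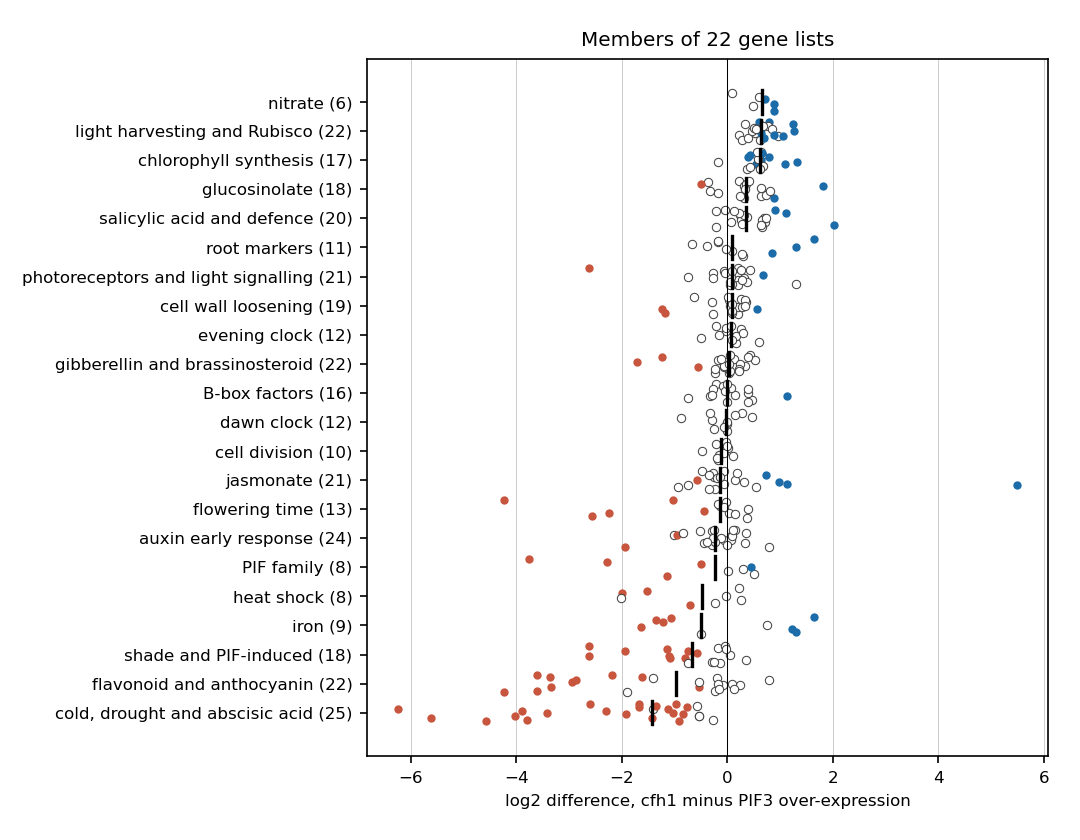
Each point is 1 tested member of a gene list, placed at its log2 difference (x axis, cfh1 minus PIF3 over-expression, 3 libraries each). Filled points passed edgeR's adjusted p of 0.05, blue higher and red lower in cfh1, open points did not, and black bars are list medians, from -1.42 for cold, drought and abscisic acid to 0.66 for nitrate, with the number of tested members after each name.

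The labelled over-expression was present in all 3 libraries. PIF3 stood at 25.7, 21.9 and 35.9 CPM (counts scaled to a common library size by trimmed mean of M-values) in cfh1 replicates 1, 2 and 3, and at 373, 371 and 385 CPM in the over-expression replicates. The groups lay far apart, with a log2 difference of -3.75 (SE 0.191, edgeR adjusted p 0.000116). Counts do not separate a transgene from the native gene. Col-0 had 30.1 ± 7.60 CPM (SD, n = 3), a level that overlapped cfh1. Col-0 values were scaled over 9 libraries and serve as orientation, with no test. No source here ties the name CFH1 to a locus, so the mutant's own gene was not checked.

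A pair of neighbouring genes on chromosome 1 was below 1 CPM in every cfh1 library and far higher in every over-expression library. UBP6, a ubiquitin-specific protease gene, stood at 0.109, 0.0393 and 0.160 CPM in cfh1 and at 65.6, 56.3 and 50.8 CPM with PIF3 over-expression (log2 difference -9.02, SE 0.243, edgeR adjusted p 1.69e-06). Col-0 had 51.6 ± 1.84 CPM (n = 3). The next gene, AT1G51720, stood at 0.253, 0.157 and 0.384 CPM in cfh1 and at 35.1, 35.5 and 34.1 CPM with PIF3 over-expression (-6.98, SE 0.198, edgeR adjusted p 1.69e-06), and Col-0 had 34.6 ± 1.24 CPM. For both genes the over-expression line was at or near the Col-0 level.

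A second pair on chromosome 1 was low in both lines. MRD1 stood at 0.217, 0.275 and 0.192 CPM in cfh1, at 1.93, 1.61 and 2.44 CPM with PIF3 over-expression and at 45.5 ± 3.28 CPM in Col-0 (n = 3). The lines differed from each other by -3.12 (SE 0.333, edgeR adjusted p 0.00447). HEI10, a gene of meiotic crossover formation, stood at 1.48, 0.943 and 1.03 CPM in cfh1, at 1.99, 1.83 and 1.52 CPM with PIF3 over-expression and at 9.07 ± 0.145 CPM in Col-0. Its libraries did not overlap between the lines, but it did not pass the test (-0.63, SE 0.273, edgeR adjusted p 0.161). MRD1 and HEI10 overlap in the reference annotation, and without strand information reads from the overlap cannot be told apart.

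**Figure D2:**
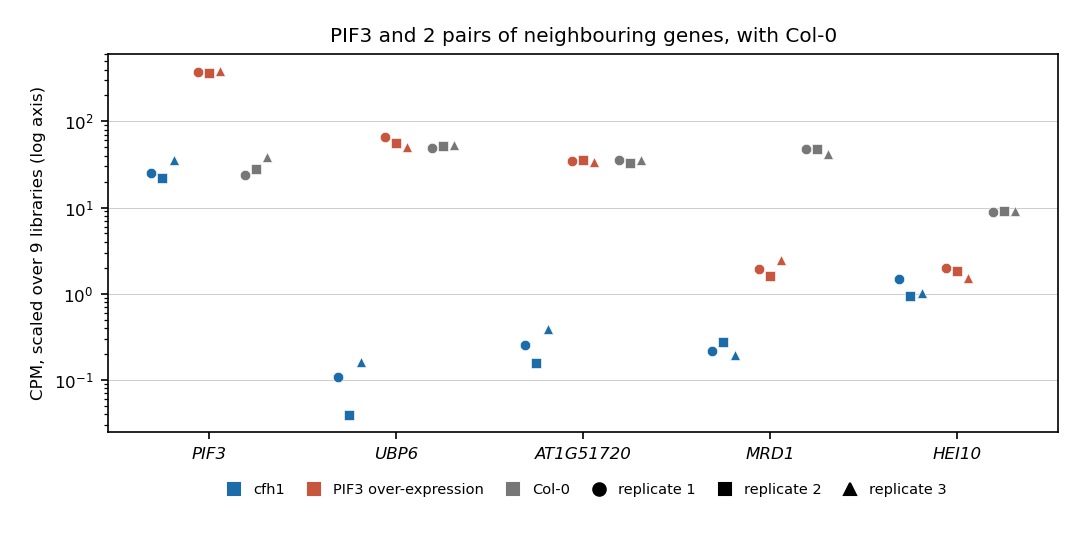
CPM scaled over 9 libraries (y axis, log scale) of PIF3 and 4 genes of chromosome 1 in cfh1, PIF3 over-expression and Col-0, with 1 marker per replicate. Of these 3 groups UBP6 and AT1G51720 are low in cfh1 only, while MRD1 and HEI10 are low in both lines, at 0.192 to 2.43 CPM against 8.92 to 47.5 CPM in Col-0.

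The F-box gene AT2G32560, chosen after its values were seen, stood at 16.2, 17.3 and 18.7 CPM in cfh1 and at 28.0, 43.3 and 35.8 CPM with PIF3 over-expression. It was lower in cfh1 (-1.03, SE 0.157, edgeR adjusted p 0.00959), with 42.9 ± 6.17 CPM in Col-0 (n = 3). The call was lost on leaving out cfh1 replicate 1 or cfh1 replicate 2, and the log2 difference ran over -1.18 to -0.87 in the 6 leave-one-out fits.

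Among PIF3's own family, 3 further members were lower in cfh1. PIF6 stood at 6.44, 5.74 and 5.86 CPM in cfh1 and at 52.4, 15.0 and 19.8 CPM with PIF3 over-expression, where replicate 1 was far above the rest (-2.27, edgeR adjusted p 0.0180). PIL1, a PIF relative known as an early shade-induced gene, had 0.877 ± 0.0396 CPM in cfh1 and 1.95 ± 0.527 CPM with PIF3 over-expression (-1.15, edgeR adjusted p 0.0370). PIF4, a factor of warmth and shade growth, had 42.9 ± 7.73 and 60.4 ± 2.50 CPM (-0.49, edgeR adjusted p 0.0464). Of 8 family members 4 were lower, beside 6.14% of all genes, PIF3 itself among them as the over-expressed gene, and 1 was higher, PIF7 (0.45, named after its values were seen), with a median of -0.24. PIF3 alone passed without cfh1 replicate 1 or cfh1 replicate 2, and without PIF3 over-expression replicate 2 or 3, 2 members were lower. PIF7 passed in none of the 6 leave-one-out fits, nor with library totals alone or with the replicate block.

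Genes known to be induced by shade or PIFs were lower in cfh1 at 9 of 18 members, with 0 higher and a median of -0.66, beside 6.14% of all genes lower. HFR1, an atypical helix-loop-helix protein that restrains PIFs, stood at 5.82, 4.56 and 6.12 CPM in cfh1 and at 24.4, 36.3 and 40.9 CPM with PIF3 over-expression (-2.62, SE 0.209, edgeR adjusted p 0.00129). ST2A, for a sulfotransferase of jasmonate metabolism, stood at 6.65, 3.93 and 6.18 CPM in cfh1 and at 50.2, 24.6 and 29.1 CPM with PIF3 over-expression (-2.63, SE 0.299, edgeR adjusted p 0.00469). Neither gene's groups overlapped, and replicate 1 of the over-expression line was the lowest of its line for HFR1 and the highest for ST2A. Col-0 was nearer to cfh1 for both, at 3.62 ± 0.664 and 4.18 ± 0.826 CPM (SD, n = 3). IAA29, an auxin response repressor gene, had 2.22 ± 0.190 CPM in cfh1 and 8.52 ± 3.54 CPM with PIF3 over-expression (-1.94). YUC8, for an auxin synthesis enzyme, had 4.28 ± 0.416 and 7.48 ± 0.683 CPM (-0.81). The other called members, named after their values were seen, were PIL1, the auxin synthesis gene YUC9 (-1.08), the homeodomain factor genes ATHB4 (-1.11) and ATHB2 (-0.58), and CKX5 (-0.74), for a cytokinin oxidase. The list had 2 lower members without cfh1 replicate 1, 2 without cfh1 replicate 2, 8 without PIF3 over-expression replicate 1, 6 without its replicate 2 and 5 without its replicate 3.

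**Figure D3:**
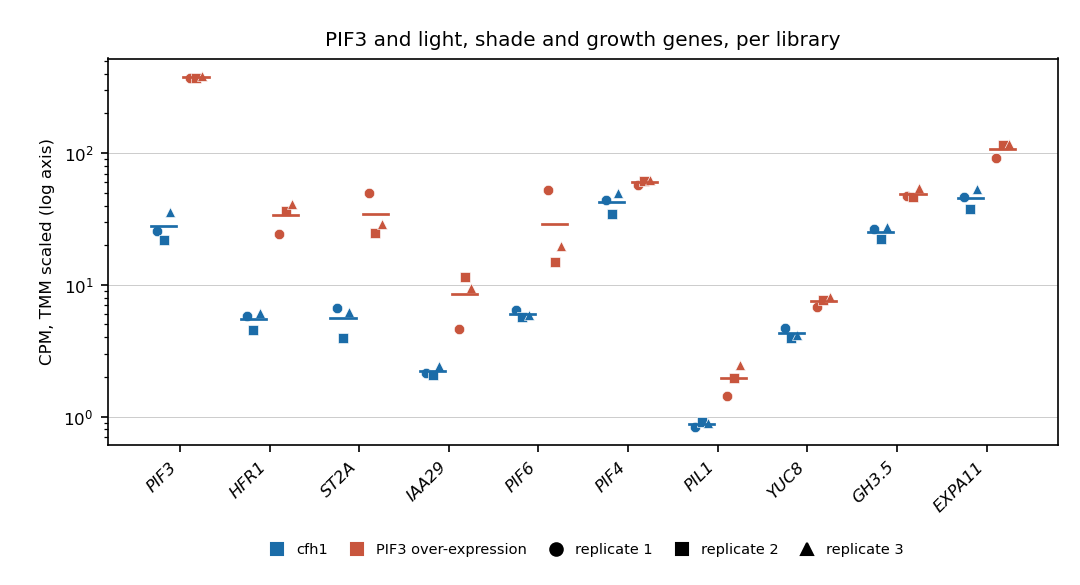
CPM (y axis, log scale) of PIF3 and 9 light, shade and growth genes in the 3 libraries of each line, with short lines at the means. PIF3 is 13.5-fold, HFR1 6.15-fold and ST2A 6.17-fold higher in the over-expression line by the edgeR fit, and PIF6 has 1 library of that line at 52.4 CPM.

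PIFs bind the G-box and the related PBE-box, so the 250 bases before the annotated start of each tested gene were searched on both strands in RefSeq's TAIR10.1 assembly. The G-box CACGTG stood in 7.42% of 20722 windows and the PBE-box CACATG in 11.4%. Of the 18 shade and PIF-induced genes, 2 windows held a G-box and 5 a PBE-box, and of the 9 called members 0 and 2 did. The called members with a PBE-box, YUC8 and YUC9, are shown with it in capitals, 5′ to 3′. The YUC8 window lies at chr4:14192319-14192568 on the plus strand and the YUC9 window at chr1:1104243-1104492 on the plus strand. A match is a description of these letters, not a binding site.
YUC8: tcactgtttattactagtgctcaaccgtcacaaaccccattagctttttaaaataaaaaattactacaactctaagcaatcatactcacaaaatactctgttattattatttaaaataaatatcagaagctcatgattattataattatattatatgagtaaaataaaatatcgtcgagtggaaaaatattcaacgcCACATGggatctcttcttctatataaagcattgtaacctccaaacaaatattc
YUC9: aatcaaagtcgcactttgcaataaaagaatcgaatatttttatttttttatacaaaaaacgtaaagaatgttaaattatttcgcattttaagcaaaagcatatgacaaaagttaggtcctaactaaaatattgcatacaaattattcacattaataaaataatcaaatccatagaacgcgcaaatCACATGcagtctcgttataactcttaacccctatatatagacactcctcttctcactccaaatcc

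Growth genes passed at shares near or modestly above the 6.26% higher and 6.14% lower of all genes. Of 24 auxin early response genes, 2 were lower in cfh1 and 0 higher, a share near that of all genes (median -0.24), namely IAA29 and GH3.5, for an auxin-conjugating enzyme, at 25.4 ± 2.83 CPM in cfh1 and 49.3 ± 4.02 CPM with PIF3 over-expression (-0.96, edgeR adjusted p 0.00492). The count was 1 without cfh1 replicate 1 or cfh1 replicate 2 and 4 without PIF3 over-expression replicate 1. Of 19 cell wall loosening genes, the expansin gene EXPA11 was lower at 45.9 ± 7.65 against 108 ± 13.8 CPM (-1.24). XTH19, of a family of xyloglucan-modifying enzymes, was lower (-1.19) and its relative XTH9 higher (0.56). Of 22 gibberellin and brassinosteroid genes, 3 were lower and 0 higher: the gibberellin synthesis gene GA20OX2 (1.04 ± 0.208 against 3.42 ± 0.258 CPM, -1.71), GASA4 (-1.24), for a gibberellin-regulated peptide, and the gibberellin receptor gene GID1A (-0.55). Without cfh1 replicate 1, EXPA11 alone of the cell wall genes and 0 of the gibberellin and brassinosteroid genes passed, and without cfh1 replicate 2, 1 of each did. The medians of the cell wall and the gibberellin and brassinosteroid lists, 0.08 and 0.03, became -0.01 and -0.06 with library totals alone.

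None of the listed clock genes passed edgeR's test on the 6 libraries, 0 of 12 in the dawn list and 0 of 12 in the evening list. Over all genes, 6.26% were higher and 6.14% lower, so lists of this size would hold few calls at those shares. An unadjusted p under 0.05 was reached by 2 genes of each list. Over all 20841 genes tested it was reached by 3186 higher and 3169 lower genes, a larger share than in either list. DESeq2 called 1 gene of the dawn list each way and 1 gene of the evening list higher. By edgeR 1 gene of the evening list was higher with the replicate block and in the fit of all 12 libraries. In the fit of 9 libraries and without PIF3 over-expression replicate 2, 1 of each list was higher. CCA1, a dawn-phased repressor of the clock, stood at 141, 148 and 109 CPM in cfh1 and at 116, 145 and 136 CPM with PIF3 over-expression, with overlapping groups (0.00, SE 0.144, edgeR adjusted p 0.993). Its partner LHY differed by 0.28 (SE 0.170, edgeR adjusted p 0.302) and the evening gene TOC1 by 0.07 (SE 0.151, edgeR adjusted p 0.791). A single collection time gives a level, not a rhythm. PHYB, for the main red-light phytochrome, differed by -0.07 (SE 0.107, edgeR adjusted p 0.702). Of 21 photoreceptor and light signalling genes, 1 was lower, HFR1, and 1 higher, the bZIP factor gene HYH (32.4 ± 5.53 against 20.3 ± 4.14 CPM, 0.67). Both counts are near the shares of all genes. The HYH call was lost on leaving out any library but cfh1 replicate 3. Of 16 B-box factor genes COL7 alone passed (1.14, named after its values were seen), a share near the 6.26% of all genes higher. It did not pass without cfh1 replicate 1 or cfh1 replicate 2. Of 10 cell division genes, 0 passed by edgeR or by DESeq2, and 1 had an unadjusted p under 0.05, a smaller share than over all genes. The list is too short for 0 calls to stand out from the shares of all genes.

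Genes of cold, drought and the hormone abscisic acid were lower in cfh1 at 20 of 25 tested members, with 0 higher, against 6.14% of all genes. The list median was -1.42, and all 25 members had a negative log2 difference. The 5 that did not pass, named after their values were seen, were the cold-response genes CBF2 (-0.53), CBF3 (-1.42), COR15B (-0.27) and COR47 (-0.54), and GOLS1 (-0.57), a relative of GOLS2. Abscisic acid builds up in water shortage, and its receptors shut off PP2C phosphatases so that kinases can switch on protective genes. RAB18, a dehydrin gene, stood at 22.4, 11.7 and 27.6 CPM in cfh1 and at 3527, 545 and 611 CPM with PIF3 over-expression (-6.24, SE 0.850, edgeR adjusted p 0.00724). RD29B, a desiccation-response gene, stood at 6.29, 3.65 and 12.5 CPM in cfh1 and at 756, 153 and 199.6 CPM with PIF3 over-expression (-5.61, SE 0.746, edgeR adjusted p 0.00696). In both genes every over-expression library lay above every cfh1 library, and replicate 1 lay several-fold above replicates 2 and 3.

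GOLS2, for an enzyme of raffinose-family sugars, was more even, at 3.54, 2.51 and 3.14 CPM in cfh1 and 102, 64.2 and 55.4 CPM with PIF3 over-expression (-4.58, SE 0.262, edgeR adjusted p 0.000245). HAI1, a PP2C phosphatase gene, had 3.37 ± 1.05 against 55.5 ± 29.0 CPM (-4.03, edgeR adjusted p 0.00337) and RD22, a dehydration-response gene, 319 ± 27.5 against 812 ± 146 CPM (-1.35, edgeR adjusted p 0.00519). Col-0 was near cfh1 for GOLS2, HAI1 and RD22, at 4.75 ± 5.26, 4.48 ± 3.39 and 270.2 ± 105 CPM (SD, n = 3). For RAB18 it had 73.7 ± 109 CPM, from 9.19 to 199 over its 3 libraries, and for RD29B 15.4 ± 19.5 CPM, from 3.27 to 38.0, so its spread for both genes reached well above cfh1. The remaining called members are named after their values were seen. They include the PP2C genes ABI2 (-1.68), PP2CA (-1.42), ABI1 (-0.91) and HAB1 (-0.85), NCED3 (-2.31), for the limiting enzyme of abscisic acid synthesis, the bZIP factor genes ABI5 (-1.68) and ABF3 (-0.77), and the cold and drought genes RD29A (-3.90), KIN1 (-3.79) and COR15A (-3.42). Phosphatases that restrain the hormone response and genes that the response induces were lower in cfh1 alike. The list's summed level was 1582, 1479 and 1528 CPM in cfh1 and 10378, 3686 and 3873 CPM with PIF3 over-expression. Without PIF3 over-expression replicate 1, 19 members were lower and the median was -1.17. Without cfh1 replicate 1 or cfh1 replicate 2, 3 and 6 were lower, with medians of -1.41 and -1.61.

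The abscisic acid response element was searched in the same windows as ACGTGTC and ACGTGGC, forms that can overlap a G-box in ACGTG. They stood in 4.23% and 3.87% of all windows and in 5 windows each of the 25 members. The G-box stood in 6 of the 25. RD29B and RAB18 are shown as 2 called members with large differences that hold an element. The RD29B window lies at chr5:21236771-21237020 on the plus strand and the RAB18 window at chr5:26519448-26519697 on the minus strand. Capitals mark these elements on either strand and, in RAB18, a PBE-box.
RD29B: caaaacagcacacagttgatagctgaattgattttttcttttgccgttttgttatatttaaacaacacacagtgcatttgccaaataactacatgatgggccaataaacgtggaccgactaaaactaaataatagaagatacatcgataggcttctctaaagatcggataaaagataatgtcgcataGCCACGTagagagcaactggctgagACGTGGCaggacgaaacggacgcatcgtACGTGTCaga
RAB18: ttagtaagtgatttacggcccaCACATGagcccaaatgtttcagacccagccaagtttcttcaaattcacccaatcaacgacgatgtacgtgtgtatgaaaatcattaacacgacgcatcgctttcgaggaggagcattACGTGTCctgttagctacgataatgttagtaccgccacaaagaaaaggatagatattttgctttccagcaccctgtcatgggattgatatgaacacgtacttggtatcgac

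**Figure D4:**
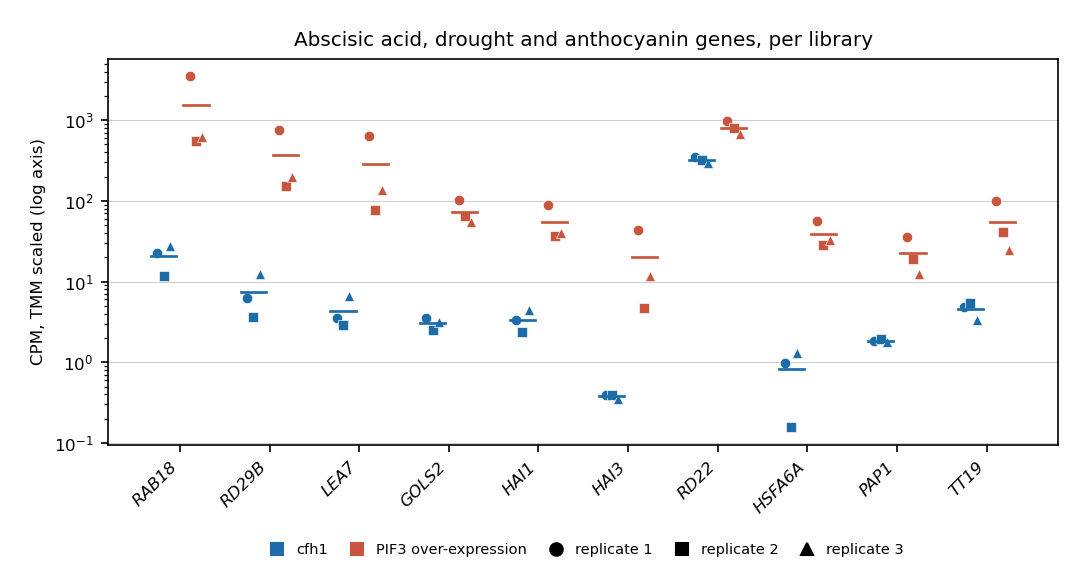
CPM (y axis, log scale) of 8 abscisic acid and stress genes and 2 anthocyanin genes in the 3 libraries of each line, with short lines at the means. Every over-expression library lies above every cfh1 library for all 10 genes, and replicate 1 is the highest, at 3527 CPM for RAB18. All 10 are called genes, and all 1279 genes called lower lacked overlap.

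Several of the 12 largest differences toward the over-expression line were also stress genes. Besides UBP6, RAB18 and RD29B they held LTP4, a lipid transfer protein gene (0.739 ± 0.692 against 107 ± 71.2 CPM, -7.10), GASA3, of the gibberellin-regulated peptide family (-6.54), TSPO, for a stress-induced membrane protein (-6.33), the late embryogenesis genes LEA7 (-6.02) and LEA4-5 (-5.03), the PP2C gene HAI3 (-5.71), the cell wall invertase gene CWINV5 (-5.63) and the heat stress factor gene HSFA6A (0.816 ± 0.595 against 39.0 ± 14.7 CPM, -5.53). ATHSP22.0, a small heat shock protein gene, had 2 counts over the cfh1 libraries and 554 over the others, a ratio of 237 (95% exact interval 65.4 to 1966, counting error only). Its over-expression libraries stood at 12.9, 1.99 and 1.88 CPM, with replicate 1 far above the others. Without PIF3 over-expression replicate 1 the CWINV5 difference was -3.71. LTP4, HSFA6A and UBP6 passed in all 6 leave-one-out fits, RD29B was lost without cfh1 replicate 1, and the other 8 were lost without cfh1 replicate 1 and without cfh1 replicate 2. Of 8 heat shock genes, 3 were lower, beside 6.14% of all genes, and 0 higher (median -0.48): the chaperone gene HSP70 (38.7 ± 2.17 against 154 ± 102 CPM, -1.99, and -1.29 without PIF3 over-expression replicate 1), DREB2A (-1.52), for a heat and drought transcription factor, and the coactivator gene MBF1C (-0.71). The count was 0 without cfh1 replicate 1 or cfh1 replicate 2, 5 without PIF3 over-expression replicate 2 and 2 without its replicate 3.

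Anthocyanin genes were lower in cfh1. Of 22 flavonoid and anthocyanin genes 10 were lower and 0 higher, against 6.14% of all genes, with a median of -0.98. PAP1, for the MYB activator of the pathway, stood at 1.84, 1.93 and 1.79 CPM in cfh1 and at 35.9, 19.2 and 12.5 CPM with PIF3 over-expression (-3.60, SE 0.383, edgeR adjusted p 0.00447). Its relative PAP2 had 0.490 ± 0.304 against 9.07 ± 7.73 CPM (-4.23). TT19, for a transferase needed to store anthocyanin, had 4.52 ± 1.04 against 55.1 ± 39.0 CPM (-3.61), and UGT75C1, for a glucosyltransferase, 5.48 ± 1.95 against 55.3 ± 47.4 CPM (-3.34). No library overlapped between the lines for these 4 genes, and replicate 1 of the over-expression line was the highest for each. The other called genes, named after their values were seen, included DFR (-3.37) and LDOX (-2.87), enzymes of the late pathway. The 12 that did not pass, also named after their values were seen, ran from TT7 (-1.9) to 4CL3 (0.78), and 4 of them were positive. They included CHS (-1.42), PAL1 (-0.24), C4H (-0.20), FLS1 (-0.09), MYB12 (0.09) and PAL2 (0.12). The lower count was 1 without cfh1 replicate 1, 2 without cfh1 replicate 2 and 6, with 1 gene higher, without cfh1 replicate 3, and without PIF3 over-expression replicate 1, 8 were, with a median of -0.43.

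Of 22 nuclear light harvesting and Rubisco genes 8 were higher in cfh1 and 0 lower, beside 6.26% of all genes higher. The other 14 did not pass, and all 22 had a positive log2 difference (median 0.63). Genes of the plastid genome did not share this direction, with 1 of 75 higher, 6 lower and a median of -0.17. Their lower count is near the 6.14% of all genes. They held only 0.737% to 1.28% of the counts in these messenger RNA libraries, and how well such RNA was captured was not tested. LHCB4.1 and LHCB6, for minor chlorophyll-binding proteins of photosystem II, had 1375 ± 117 against 847 ± 141 CPM (0.70) and 1478 ± 164 against 852 ± 197 CPM (0.80). The Rubisco small subunit gene RBCS3B stood at 6266, 7361 and 3994 CPM in cfh1 and at 1754, 3282 and 2278 CPM with PIF3 over-expression (1.27, SE 0.309, edgeR adjusted p 0.0351). The near-identical RBCS2B, with which it can share reads, differed by 1.24. RBCS3B groups did not overlap, and cfh1 replicate 3 was the nearest to the over-expression libraries. Col-0 was nearer to cfh1 for LHCB4.1, LHCB6, RBCS3B and RBCS2B. It had 1304 ± 62.4, 1448 ± 68.2, 5456 ± 650 and 3233 ± 316 CPM in that order (SD, n = 3). The summed level of the list was 64654, 71554 and 63530 CPM in cfh1 and 32944, 49175 and 46453 CPM with PIF3 over-expression. DESeq2 called 16 members, beside 2229 higher genes of all 20841. By edgeR 0 passed without cfh1 replicate 1, cfh1 replicate 2, PIF3 over-expression replicate 1 or PIF3 over-expression replicate 3, with medians from 0.50 to 0.67. Over all genes, these fits called 35, 79, 662 and 454 higher in that order. In whole seedlings, fewer cells of a type and less RNA per cell cannot be told apart.

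Chlorophyll synthesis genes were higher in cfh1 at 8 of 17 members, beside 6.26% of all genes, with 0 lower and a median of 0.63. HEMA1, for the first committed enzyme of the pathway, stood at 202, 235 and 241 CPM in cfh1 and at 66.5, 128 and 76.5 CPM with PIF3 over-expression (1.32, SE 0.230, edgeR adjusted p 0.0141). The groups did not overlap, and over-expression replicate 2 was the nearest to cfh1. CHLH and CHLD, for subunits of magnesium chelatase, had 1435 ± 348 against 673 ± 141 CPM (1.09) and 195 ± 17.2 against 133 ± 15.5 CPM (0.55), and their regulator gene GUN4 204 ± 7.54 against 129 ± 20.3 CPM (0.66). DESeq2 called 16 members, beside 2229 higher genes of all 20841. By edgeR the count was 0 without cfh1 replicate 1 or cfh1 replicate 2, where only 35 and 79 of all genes were higher. It was 13 without cfh1 replicate 3, and 3, 5 and 1 without PIF3 over-expression replicate 1, replicate 2 and replicate 3.

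**Figure D5:**
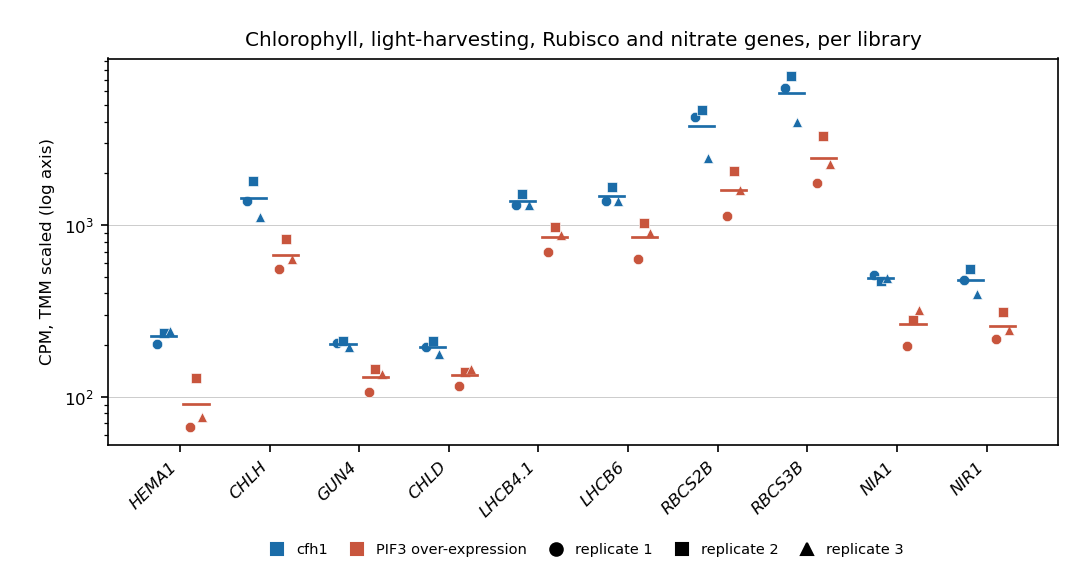
CPM (y axis, log scale) of 4 chlorophyll synthesis, 2 light-harvesting, 2 Rubisco and 2 nitrate genes in the 3 libraries of each line, with short lines at the means. For all 10 genes every cfh1 library lies above every over-expression library, and replicate 1 is the lowest of the over-expression line. All 10 are called genes, and 1300 of the 1304 genes called higher lacked overlap.

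Of 6 tested nitrate genes, 3 were higher in cfh1, beside 6.26% of all genes, with 0 lower and a median of 0.66. The 3 were the nitrate reduction genes of the list. Its tested transport genes NRT1.1 (0.49), NRT3.1 (0.61) and NRT2.1 (0.10), named after their values were seen, did not pass. The nitrate reductase genes NIA1 and NIA2 had 490.0 ± 17.64 against 265 ± 62.7 CPM (0.89) and 1738 ± 72.2 against 1061 ± 246 CPM (0.71), and the nitrite reductase gene NIR1 477 ± 79.9 against 257 ± 49.3 CPM (0.89). Col-0 was nearer to cfh1 for NIA1, NIA2 and NIR1, at 412 ± 101, 1526 ± 278 and 487 ± 34.1 CPM (SD, n = 3). The count was 0 without cfh1 replicate 1 or cfh1 replicate 2 and 2, 2 and 1 without PIF3 over-expression replicate 1, replicate 2 and replicate 3. NIA2 passed in none of the 6 leave-one-out fits (0.53 to 0.84) and not with library totals alone.

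Of 9 iron genes, 3 were higher in cfh1 and 4 lower, beside 6.26% and 6.14% of all genes. BHLH38, for a regulator induced by iron shortage, had 59.3 ± 11.6 CPM in cfh1 and 185 ± 40.4 CPM with PIF3 over-expression (-1.64, edgeR adjusted p 0.00506), and its relatives BHLH39 (-1.36), BHLH101 (-1.07) and BHLH100 (-1.23) were lower too. IRT1, for the root iron transporter, was higher at 233 ± 73.2 against 94.1 ± 4.64 CPM (1.31), as were FRO2, for the ferric reductase (1.63), and FIT (1.22), for the basic helix-loop-helix activator of both. BHLH100, FIT, BTS and FER1 are named after their values were seen. FRO2 stood at 113, 161 and 48.4 CPM in cfh1 and at 36.4, 36.4 and 30.9 CPM with PIF3 over-expression, so cfh1 replicate 3 lay nearest to the other line. BTS (-0.50) and FER1 (0.76) did not pass. The higher and lower counts were 0 and 1 without cfh1 replicate 1, 0 and 2 without cfh1 replicate 2, and without any 1 over-expression library 2 were higher. The fit of all 12 libraries called 1 higher and 2 lower, without BHLH39, BHLH100, IRT1 and FRO2.

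Of 11 root markers, 3 were higher in cfh1, beside 6.26% of all genes, and 0 lower: IRT1, FRO2 and the phosphate transporter gene PHT1;1 (0.85). None of them passed in the fit of all 12 libraries, 0 passed without cfh1 replicate 1 or cfh1 replicate 2, and 1 passed without any 1 over-expression library. The median was 0.10, with 6 positive and 5 negative members, and became -0.01 with library totals alone. The summed level of the markers overlapped between the lines, at 5349, 5192 and 4130 CPM in cfh1 and 4641, 5397 and 4339 CPM with PIF3 over-expression, and every marker had counts in every library. Most of that sum was 1 gene, PYK10, named after its values were seen. It had 3923 ± 488 CPM in cfh1 and 4015 ± 538 CPM with PIF3 over-expression, so the sum says little about the other markers.

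Flowering genes were lower in cfh1 at 5 of 13 members, beside 6.14% of all genes, with 0 higher and a median of -0.15. FLC, a repressor of flowering, stood at 2.57, 1.65 and 3.36 CPM in cfh1 and at 17.2, 12.7 and 15.5 CPM with PIF3 over-expression (-2.57, SE 0.242, edgeR adjusted p 0.00296), with Col-0 between them at 5.74 ± 0.502 CPM. Its relatives MAF5 and MAF4 had 0.479 ± 0.212 against 2.305 ± 0.448 CPM (-2.25) and 2.48 ± 0.561 against 5.08 ± 0.500 CPM (-1.03). FT, the mobile signal that FLC is known to repress, had 3 counts over the cfh1 libraries and 74 over the others, a ratio of 21.1 (95% exact interval 6.96 to 104.9, counting error only). SOC1, a promoter of flowering named after its values were seen, was lower as well (-0.45). FLC alone passed without cfh1 replicate 1 or cfh1 replicate 2, and without PIF3 over-expression replicate 3, 3 did.

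A minority of members was called in the 3 defence lists. The shares higher in cfh1 lay above the 6.26% of all genes, each on 4 genes or fewer, and 6.14% of all genes were lower. Of 20 salicylic acid and defence genes, 3 were higher and 0 lower (median 0.35): ALD1, of pipecolic acid synthesis (3.17 ± 1.62 against 0.778 ± 0.256 CPM, 2.02), the pathogenesis-related gene PR5 (1.11) and the transcription factor gene WRKY70 (0.91). DESeq2 called 6. Of 21 jasmonate genes, 4 were higher and 1 lower (median -0.14). PDF1.2, a defensin gene, stood at 24.6, 1.57 and 1.70 CPM in cfh1 and at 0.0906, 0.158 and 0.358 CPM with PIF3 over-expression (5.49, SE 1.31, edgeR adjusted p 0.0328), with cfh1 replicate 1 far above the rest. Without cfh1 replicate 1 the PDF1.2 difference was 2.99 and did not pass, nor did it without cfh1 replicate 2 or any 1 over-expression library, and DESeq2 gave it no adjusted p. LOX3, of jasmonate synthesis (1.14), and the repressor gene JAZ9 (0.98) were higher, and the storage protein gene VSP1 lower (-0.58). Of 18 glucosinolate genes, the myrosinase genes TGG2 (274 ± 129 against 77.6 ± 2.90 CPM, 1.82) and TGG1 (0.88) were higher and the regulator gene MYB34 lower (-0.50), with a median of 0.35. The lower counts of 1 of 21 jasmonate and 1 of 18 glucosinolate genes do not exceed the share of all genes. Without cfh1 replicate 1 or cfh1 replicate 2, 0 members of these 3 lists passed by edgeR. Without PIF3 over-expression replicate 1 the higher counts were 0, 1 and 1, and without its replicate 3 they were 1, 0 and 1. WRKY70 and MYB34 were not called in the fit of all 12 libraries, nor PR5 with library totals alone.

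The 12 largest differences toward cfh1 began with PDF1.3, a defensin gene whose reads can be shared with PDF1.2. It stood at 11.5, 2.16 and 0.865 CPM in cfh1 and at 0, 0.221 and 0 CPM with PIF3 over-expression (5.996, SE 1.31, edgeR adjusted p 0.0261), with cfh1 replicate 1 far above the rest. The PDF1.3 difference was 4.31 without cfh1 replicate 1 and 10.2 without PIF3 over-expression replicate 2, where that line is left at 0 counts and the fitted value depends on the prior count. CYP712A1, a cytochrome P450 gene, had 4.11 ± 2.13 against 0.349 ± 0.163 CPM (3.54). NEET, for an iron-sulfur cluster protein, stood at 18.4, 27.6 and 20.3 CPM in cfh1 and at 0.785, 7.61 and 1.19 CPM with PIF3 over-expression (2.80, SE 0.676, edgeR adjusted p 0.0344), where replicate 2 was the highest. Without that library the NEET difference was 4.47. Col-0 had 27.9 ± 4.82 CPM of NEET (SD, n = 3). Its mean was nearer to cfh1 for all of the 12 but PDF1.3 and PDF1.2, where it had 1.39 ± 0.430 and 1.65 ± 0.488 CPM. AIR1 (1.998), ENH1 (1.75), MRU1 (1.76) and the protein kinase gene CIPK20 (1.86) also had their highest over-expression value in replicate 2, as did all of the 12 but PDF1.2. LEA3, at 6.94, 8.64 and 5.03 CPM in cfh1 and 1.78, 1.83 and 1.58 CPM with PIF3 over-expression (1.98, SE 0.232, edgeR adjusted p 0.00493), was higher in cfh1, unlike LEA7 and LEA4-5. The defence gene ACD6 (1.78), the phloem protein gene PP2-A3 (1.67), PDF1.2 and TGG2 completed the 12. LEA3 alone of the 12 passed without cfh1 replicate 1, and without cfh1 replicate 2, LEA3 and CYP712A1 did.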

How the data were processed

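Messenger RNA of whole seedlings was sequenced from 5 to 20 ng of TRIzol-extracted RNA, per the labels' protocols. Per the file's values, the authors' deposited table holds estimated counts for 27588 genes, and 45.0% of values in the 6 libraries were not whole (tolerance 1e-09). TAIR10, Trimmomatic 0.39, HISAT2 2.1.0 and StringTie 2.1.2 appear in the submitters' processing notes, with no roles. The counting step and its strand setting are unstated there. Near-identical genes (the LHCB1, LHCB2, RBCS and PDF1 groups, KIN1 with COR6.6) can share reads, so single members are uncertain. Names came from the TAIR10.1 annotation, which matched 27390 loci.

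Counts were rounded. In R 4.3.3, edgeR 4.0.16 kept genes by filterByExpr (minimum count 10), scaled the 6 libraries by TMM and fitted a quasi-likelihood model with 1 mean per line (4 residual degrees of freedom, biological coefficient of variation 0.154), with 2-sided tests and Benjamini-Hochberg adjustment over all genes tested. Each SE was derived from the test, as the absolute log2 difference over the square root of the quasi-likelihood F statistic. The steps were tested on simulated data. Col-0 levels were scaled over 9 libraries, which changed the CPM of the 6 by between -1.05% and -0.126%. Alternatives were DESeq2 1.42.0, RLE factors, plain library totals, all genes unfiltered, at least 1 CPM in 3 libraries, fits of 9 or 12 libraries, the replicate number as a block, and leaving out each library.

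The comparison, the 22 gene lists (355 distinct genes) and the rules were chosen with earlier results of these data known. Genes with full values were the 12 largest differences each way among nuclear genes with a symbol, adjusted p under 0.05, mean log2 CPM of at least 1 and no overlap, up to 4 called members with the smallest adjusted p of each list with at least 2 called, PIF3, PHYB, CCA1, LHY, TOC1, PIL1, UBP6, MRD1, HEI10, AT1G51720 and, after its values were seen, AT2G32560.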

Additional observations from a re-analysis of the deposited data

How the results depend on the processing

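Leaving out 1 library gave 35 to 1660 genes higher in cfh1 and 129 to 1286 lower, against 1304 and 1279 with all 6, so the number of calls is not well fixed by 3 libraries a line. DESeq2 called 2229 higher and 1830 lower, and the fit of 9 libraries with Col-0 called 2165 and 1860. RLE factors, library totals alone, both filters and the fit of all 12 libraries gave 970 to 1524 higher and 1211 to 1844 lower. The cause of these shifts was not tested. None of the genes called with all 6 libraries changed direction under these alternatives. Their near-complete lack of overlap between the lines left little room for such a change. The labels give both lines replicate numbers 1 to 3. Deviations of same-numbered libraries correlated at -0.08, 0.03 and 0.21 over 20841 genes, and those of differently numbered libraries at -0.17 to 0.19. These ranges overlap, so the check does not decide whether the numbers pair the libraries. With the replicate block 1560 genes were higher and 1403 lower, and 1 of the 87 genes with full values, VSP1, lost its call. In the fit of all 12 libraries 6 lost it (WRKY70, MYB34, BHLH39, IRT1, FRO2 and PHT1;1), and with library totals alone 2 did (PR5 and NIA2). Genes near 1 CPM or under it, such as FT and PDF1.3, rest on few counts.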
